A study of Caenorhabditis elegans with 2 samples.

Results

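The genes of the transforming growth factor beta (TGF-beta) pathways of Caenorhabditis elegans were examined for peaks of UNC-62 in chromatin immunoprecipitation and sequencing (ChIP-seq) data. UNC-62, of the Meis family, binds DNA through a homeodomain. The 10 genes, out of 19973 protein-coding genes on the 6 nuclear chromosomes, were chosen by their place in the dauer and body-size pathways, with the peaks of these lists already known and daf-5 as the gene that drew attention. Ligand genes were daf-7 and dbl-1, receptor genes daf-1 and daf-4, SMAD genes daf-8, daf-14, sma-3 and daf-3, and genes of further nuclear factors daf-5 and sma-9. A summit was assigned to a gene when it lay inside the gene (Ensembl annotation of WBcel235, the same assembly as ce11) or up to 5000 bp upstream of it. The peak signals that made daf-5 stand out chose the set, so its peaks are given as a description with no test.

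The material was whole L4 larvae of strain OP602, of mixed sex (the labels give pooled male and female), broken up by sonication, in 1 group with 2 biological replicates. Both replicates carry the same transgene, which adds GFP-FLAG to the C-terminus of UNC-62, the antibody is labelled unc-62, and no untagged or mutant group was analysed here. In whole larvae a peak found in few cells and a weak peak in many cells cannot be told apart. In ce11, the replicate 1 list held 15466 peaks, the replicate 2 list 24524 and the list from both replicates pooled 30000. A further list kept the peaks that pass a threshold on the irreproducible discovery rate (IDR), and its 114 peaks were the 114 strongest of the pooled list. Rank 1 is the highest signal value of a list. The pooled and replicate lists include background regions by their description, so a low-ranking entry says little by itself, and read depth is unknown.

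In C. elegans, 2 TGF-beta pathways share the type II receptor DAF-4. In the dauer pathway, DAF-7 from sensory neurons signals through DAF-1 and DAF-4 and the receptor-regulated SMADs DAF-8 and DAF-14, which oppose the co-SMAD DAF-3 and its Sno/Ski partner DAF-5. When the signal is low, DAF-3 and DAF-5 promote entry into the dauer larva, a resistant alternative stage. In the body-size pathway, DBL-1, a ligand of the bone morphogenetic protein class, acts through DAF-4 and SMADs including SMA-3, and SMA-9, a zinc finger protein of the Schnurri family, acts with them in the nucleus.

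In the pooled list, UNC-62 peaks of high rank lay at the genes of the nuclear factors and, in 1 case, of a SMAD. Replicate 2 also had daf-5, sma-9 and daf-14 among its 1000 strongest. Replicate 1 had the ligand gene dbl-1 (best rank 212) there in place of daf-14 (best rank 5694). IDR summits were found at daf-5, with 2, and at sma-9, with 1, and at none of the other 8 genes. With 2000 bp upstream in place of 5000, daf-5 alone had one. Among all protein-coding genes 0.871% had an IDR summit in the window with 5000 bp upstream, and 0.025% had 2 or more. No such share is given for 2000 bp. As daf-5 drew attention through its peaks and its window is long, the 0.025% does not measure how unusual it is. A summit among the 1000 strongest pooled peaks lay at 3 members, daf-5, sma-9 and daf-14, against 7.61% of all genes. Any pooled summit was present at all 10, which sets them little apart from the 87.6% of all genes that have one. The best pooled rank of a member had a median of 3251.5, and that of all genes with a pooled summit a median of 7853, and 7 members had a better rank than 7853. The members in order of best pooled rank were daf-5 (55), sma-9 (82), daf-14 (227), dbl-1 (1157), daf-4 (2771), daf-3 (3732), daf-7 (5976), sma-3 (7872), daf-8 (15114) and daf-1 (27191). With 2000 bp upstream the order changed, with best ranks of 562 at sma-9, behind daf-14, 8267 at daf-7 and 9458 at dbl-1, and no summit at daf-1 or sma-3. Each of these ranks comes from a single pooled list and has no replicate error, and the replicate lists below show how far apart the ranks of a gene can lie.

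**Figure D1:**
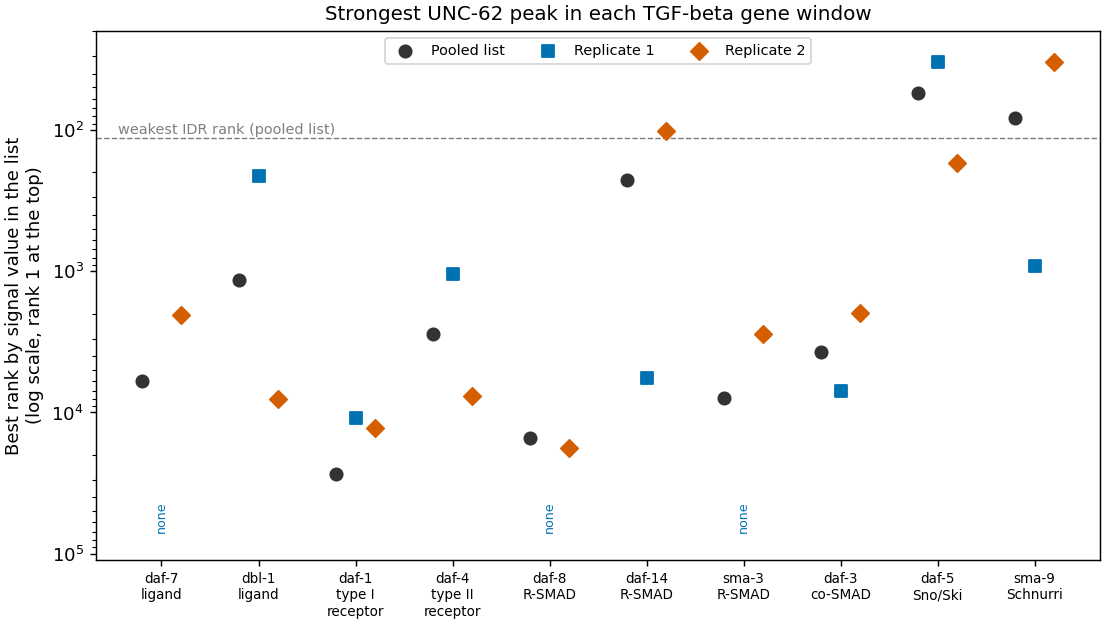
Best rank by signal value (vertical axis, log scale, rank 1 at the top) of any peak with its summit in the gene or up to 5000 bp upstream, for the 10 TGF-beta genes in the pooled list (circles), replicate 1 (squares) and replicate 2 (diamonds); the dashed line lies below pooled rank 114, the last IDR peak. The pooled ranks of daf-5 (55) and sma-9 (82) lie above the line, the replicate ranks of daf-14 and dbl-1 lie far apart, and daf-7, daf-8 and sma-3 have no replicate 1 summit.

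The reference sequence around the 4 strongest member summits is shown because these are the peaks on which the ranking turns. Each stretch covers 201 bases centred on the summit, read from the RefSeq genome of assembly WBcel235 (ce11) on the plus strand, 5′ to 3′, and none overlaps an annotated exon. Capitals mark matches on either strand to TGACAG (the Meis core), to the repeat GAGAGA, to the repeat ACACAC or to GTCTAGAC (a palindromic SMAD-binding sequence known from vertebrates), and matches may overlap. The stretches are chrII:14040313-14040513, chrII:14044248-14044448, chrX:10766133-10766333 and chrIV:10252484-10252684.
daf-5 peak of pooled rank 55: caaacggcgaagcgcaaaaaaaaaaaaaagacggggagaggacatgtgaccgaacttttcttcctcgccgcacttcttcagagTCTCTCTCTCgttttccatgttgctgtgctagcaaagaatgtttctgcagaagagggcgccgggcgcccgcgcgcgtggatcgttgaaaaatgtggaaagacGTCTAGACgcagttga
daf-5 peak of pooled rank 58: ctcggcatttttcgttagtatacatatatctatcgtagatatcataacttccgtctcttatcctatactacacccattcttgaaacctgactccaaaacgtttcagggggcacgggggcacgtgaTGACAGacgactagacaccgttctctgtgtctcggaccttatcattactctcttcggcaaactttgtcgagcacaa
sma-9 peak of pooled rank 82: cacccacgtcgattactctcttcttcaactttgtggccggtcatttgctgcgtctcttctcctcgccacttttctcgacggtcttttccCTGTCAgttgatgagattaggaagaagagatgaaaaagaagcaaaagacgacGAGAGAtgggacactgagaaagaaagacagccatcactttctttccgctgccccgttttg
daf-14 peak of pooled rank 227: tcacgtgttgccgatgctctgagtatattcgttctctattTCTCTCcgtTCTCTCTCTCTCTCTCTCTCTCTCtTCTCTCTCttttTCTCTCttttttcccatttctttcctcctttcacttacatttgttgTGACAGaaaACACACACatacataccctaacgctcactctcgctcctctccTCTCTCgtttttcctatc

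The Meis core TGACAG stood in 3 of these 4 windows, at daf-5 (rank 58), sma-9 (rank 82) and daf-14 (rank 227), and in no other of the 46 pooled summit windows of the members. At sma-9 it ended 6 bp from the summit, on the minus strand (chromosome X, 10766222 to 10766227). It lay 25 bp from the summit at daf-5 (chromosome II, 14044373 to 14044378) and 32 bp from it at daf-14 (chromosome IV, 10252616 to 10252621), on the plus strand in both. Over all member peaks the share with TGACAG was 6.52% (3 of 46, 95% exact Clopper-Pearson interval 1.37 to 17.9%), against 7.57% of the windows of all pooled peaks and 13.2% of those of the IDR peaks. The members as a whole thus carried the Meis core about as often as pooled peaks in general. The 3 windows with it were singled out after their values were seen.

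The strongest daf-5 window had no TGACAG. It held a run of overlapping GAGAGA matches on the minus strand, the nearest 8 bp from the summit, and the SMAD palindrome GTCTAGAC 85 bp from it (chromosome II, 14040498 to 14040505). GTCTAGAC was rare in the lists, in 50 of the 30000 pooled windows (0.167%) and in 1 of the 114 IDR windows, which is the one of daf-5. A second member window of the pooled list with it was also at daf-5, in the upstream region (pooled rank 8123). The match there lay 75 bp from the summit (chromosome II, 14053569 to 14053576). In the replicate 2 list a daf-14 window had the palindrome too (rank 4591). The replicate 2 window of the strongest daf-5 peak did not reach the match, as its summit lay 18 bp from the pooled one. In the daf-14 window, 15 GAGAGA matches were counted on the minus strand, most of them overlapping in a CT-rich run of the plus strand. GAGAGA was in 26.1% of member windows (12 of 46, 95% exact interval 14.3 to 41.1%), against 13.6% of all pooled windows and 43.0% of the IDR windows. ACACAC was in 21.7% of member windows (10 of 46, interval 10.9 to 36.4%), against 8.54% of all pooled windows and 41 of the 114 IDR windows. The Hox-PBC sequence TGATNNAT was in 19.6% (9 of 46), against 16.5% and 18.4%, and TGATTGAC was in none of the 46, against 0.803% and 1.75%. These shares are over sites of one experiment, many of them neighbours, and a match is a stretch of letters and not a binding site.

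Ligand genes had no IDR summit, and their replicates differed. daf-7, whose product is the dauer-pathway ligand, lies on chromosome III from 811844 to 813773 on the plus strand. Its 3 pooled summits had signal values of 12.6 to 14.7 and ranks from 5976 to 10981. The pooled summit of rank 8267 lay 3 bp upstream of the annotated daf-7 start, where replicate 2 had its strongest peak at this gene (rank 2047, signal value 10.7). Replicate 1 had no summit in the whole window, so the daf-7 peaks rest on replicate 2. The strongest and the weakest of the 3 summits lay inside the upstream gene trpp-11, 791 bp and 1437 bp from that gene's start.

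The other ligand gene, dbl-1, lies on chromosome V from 6758135 to 6760418 on the plus strand. Its strongest pooled summit (rank 1157, signal value 20.3) lay 3558 bp upstream, at 6754577. That peak ranked 212 in replicate 1, with a signal value of 15.7, and the overlapping peak of replicate 2 ranked 21712, with a signal value of 5.31 near the lower end of that list (5.03). Summits of the 2 replicate peaks lay within 82 bp of the pooled summit. Peaks of the 2 replicates thus overlapped there, near the top of one list and near the bottom of the other. The replicate 2 list includes background regions, so its entry of that rank says little by itself. Both other pooled peaks of dbl-1 overlapped a peak of replicate 2 alone, 1 of them in the 3′ UTR (rank 9458).

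Receptor genes were without peaks of high rank. At daf-1, the type I receptor of the dauer pathway (chromosome IV, 132416 to 138081, plus strand), the single pooled summit ranked 27191 with a signal value of 9.10. It lay 4321 bp upstream, 1364 bp downstream of the start of cox-6C, and overlapped a replicate 2 peak of rank 12971 and none of replicate 1. With daf-4, the type II receptor of both pathways (chromosome III, 5625135 to 5632323, plus strand), 7 pooled summits were counted, 3 in the gene and 4 upstream, and 3.89% of all genes had as many or more. The strongest ranked 2771 (signal value 17.2) and lay in an intron, 144 bp upstream of an internal daf-4 start. It overlapped a replicate 1 peak of rank 1054 and a replicate 2 peak of rank 11502. A summit in a coding exon (rank 3323) overlapped a peak of replicate 1 alone, rank 4741, with the summits 1 bp apart. A further intronic summit (rank 3203) overlapped a peak of replicate 2 alone, rank 13643. No daf-4 peak was among the 1000 strongest in either replicate.

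Among the receptor-regulated SMAD genes, daf-14 carried a strong peak and daf-8 and sma-3 did not. The daf-14 gene lies on chromosome IV from 10250627 to 10255852 on the plus strand. Its strongest pooled summit (rank 227, signal value 27.8, at 10252584) lay in an intron of 2888 bp, 1957 bp into the gene and 1082 bp upstream of an internal daf-14 start. The weakest IDR peak had a signal value of 32.5, so this peak fell short of that list. In replicate 2 the overlapping peak ranked 101 with a signal value of 20.9 and its summit 42 bp away. Replicate 1 had rank 5694 there, with a signal value of 8.83 and its summit 254 bp away, next to the weaker pooled summit of rank 18611. The strong daf-14 peak thus ranked high in replicate 2. The replicate 1 peak that overlapped it ranked low and had its summit nearer to the weaker pooled summit.

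At daf-8 (chromosome I, 8584424 to 8587507, minus strand) the single pooled summit ranked 15114 with a signal value of 11.4, 753 bp upstream of the start. It overlapped a replicate 2 peak of rank 17928 and no replicate 1 peak. At sma-3, a SMAD of the body-size pathway (chromosome III, 6860974 to 6863968, minus strand), the single pooled summit ranked 7872 with a signal value of 13.8. It lay 3932 bp upstream in a coding exon of cra-1, and overlapped a replicate 2 peak of rank 2780 and no peak of replicate 1. Neither gene had a pooled summit inside its body.

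The co-SMAD gene daf-3 and the Sno/Ski gene daf-5, whose products act together, differed in their peaks. At daf-3 (chromosome X, 817922 to 825475, minus strand) the strongest pooled summit ranked 3732 with a signal value of 16.2, in a coding exon 259 bp downstream of the nearest daf-3 start. It overlapped a replicate 2 peak of rank 1980 and no replicate 1 peak. The second pooled summit, 613 bp upstream of the gene, ranked 29042, and overlapped a replicate 2 peak of rank 3078. Replicate 1 had 2 summits in the window, ranks 7078 and 9782, and neither of them overlapped a pooled peak of daf-3.

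The daf-5 gene lies on chromosome II from 14033216 to 14052304 on the minus strand and had 9 pooled summits, 8 in the gene and 1 upstream. No other annotated gene overlaps its body and no other protein-coding gene reaches into its window. Of the 9, 5 lay in the longest intron, which runs for 14446 bp from 14037722 to 14052167. Both IDR peaks were among them. The stronger (pooled rank 55, signal value 40.3, summit 14040413) lay 11891 bp into the gene and 2692 bp upstream of the internal start of the second of 2 annotated daf-5 transcripts. The second (rank 58, signal value 39.7, summit 14044348) lay 3935 bp away, 6627 bp upstream of the same internal start. These are the only member peaks that ranked among the 1000 strongest in both replicates, together with the pooled peak of rank 4808. That peak overlaps the same 2 replicate peaks as rank 55, with its own summit 237 and 255 bp from theirs. Of all 30000 pooled peaks, 231 overlap peaks of such rank in both replicates.

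In replicate 1 the daf-5 peaks of rank 55 and 58 ranked 33 and 37, with signal values of 22.4 and 22.1. In replicate 2 they ranked 172 and 621, with signal values of 18.1 and 13.6. The summits of both replicates lay within 18 bp of the pooled summit at the stronger site and within 6 bp at the weaker. Thus position was shared closely, and both peaks ranked higher in replicate 1. The third daf-5 peak (rank 329, signal value 25.5, summit 14050775) lay in the same intron, 1529 bp downstream of the upstream start. It ranked 101 in replicate 1 and 7418 in replicate 2, with summits at most 12 bp apart from the pooled one. The remaining daf-5 summits ranked from 4808 to 28931. The upstream one, 1347 bp before the gene (rank 8123), overlapped a replicate 2 peak of rank 1373 and none of replicate 1.

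IDR peaks with replicate ranks most like those of daf-5, by distance in log2 rank over the 2 replicates among the 112 that overlap a peak of each, were nearest to ipla-6 (ranks 38 and 183 in replicates 1 and 2), K02D3.1 (24 and 167) and tba-2 (26 and 135) for the stronger peak. For the weaker they were nearest to ify-1 (28 and 435), Y55F3AR.2 (59 and 607) and unc-62 itself (58 and 507).

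The Schnurri gene sma-9 lies on chromosome X from 10769282 to 10782973 on the plus strand and had 16 pooled summits, more than any other member. Of all protein-coding genes 0.195% had as many or more. In the gene lay 11 and upstream of it 5, and 5 of the 16 were among the 1000 strongest pooled peaks, with ranks 82, 562, 783, 838 and 839. The IDR peak (rank 82, signal value 35.6, summit 10766233) lay in intergenic sequence 3049 bp upstream of the gene. It ranked 33 in replicate 2 with a signal value of 29.2 and the summit 24 bp away. In replicate 1 it ranked 9412, in the weaker part of that list, with a signal value of 7.75 and the summit at the same base as the pooled one. Of those 112 IDR peaks, 2 had a worse rank in replicate 1, and the median rank there was 78.5.

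The other strong sma-9 peaks divided between the replicates. The intronic peak of rank 562 ranked 394 in replicate 2, with the summit at the same base. It overlapped a replicate 1 peak of rank 10432 with its summit 238 bp away. That of rank 838 overlapped a replicate 2 peak of rank 273 and none of replicate 1. The upstream peak of rank 839, 1700 bp before the gene, ranked 924 in replicate 1, with the summit 4 bp away. It overlapped a replicate 2 peak of rank 7561 with its summit 194 bp away. The peak of rank 783, in a coding exon, ranked 2837 in replicate 1 and 3455 in replicate 2. So sma-9 had a summit among the 1000 strongest of each replicate, but at different sites. The IDR peaks whose replicate ranks were most like those of the sma-9 one were nearest to nlp-24 (10151 and 47 in replicates 1 and 2), pkg-2 (14088 and 24) and vab-1 (6116 and 58).

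**Figure D2:**
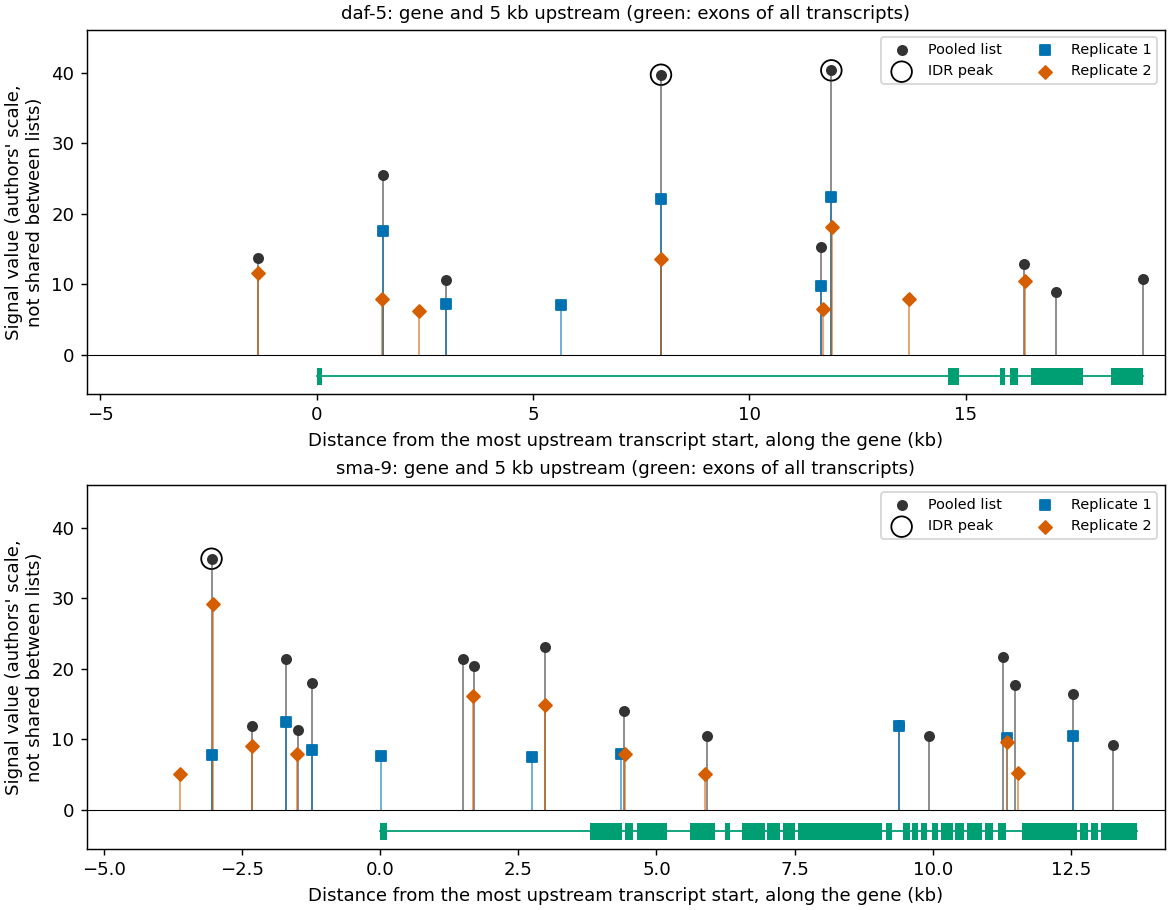
Signal value (vertical axis, the authors' scale, which is not shared between lists) of each peak by the distance of its summit from the most upstream start, along the gene in kb (horizontal axis), for daf-5 above and sma-9 below; circles are pooled, squares replicate 1 and diamonds replicate 2 peaks, rings mark IDR peaks and green boxes exons. The daf-5 IDR peaks lie inside the long intron with peaks of both replicates beneath them, and the sma-9 IDR peak lies 3049 bp upstream with a tall replicate 2 peak and a low replicate 1 peak.

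Replicate support was counted over the 46 pooled peaks of the members. A peak of both replicates was overlapped by 18 (39.1%, 95% exact interval 25.1 to 54.6%), where of the 29954 other pooled peaks 5997 did. When the summits also had to lie within 100 bp, 8 member peaks (17.4%, interval 7.82 to 31.4%) and 2995 of the 29954 others were left, so the interval then includes the share of the others. The 18 rest on 14 distinct pairs of replicate peaks, and neighbouring pooled peaks of the members overlap in 7 cases. The 18 belonged to sma-9 (8), daf-5 (4), daf-14 (3), daf-4 (2) and dbl-1 (1), and daf-7, daf-1, daf-8, sma-3 and daf-3 had none. A replicate 2 peak alone was overlapped by 20 (43.5%), a replicate 1 peak alone by 5 (10.9%) and none by 3, against 36.1%, 23.2% and 20.7% of the other pooled peaks. Each interval covers counting error over peaks only. Member peaks ranked higher (median 7997.5) than the other pooled peaks (median 15007.5). The part of rank in this share was not tested.

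By replicate, 3 members had a summit among the 1000 strongest of replicate 1 (dbl-1, daf-5 and sma-9), against 7.62% of all genes. In replicate 2 there were also 3 (daf-14, daf-5 and sma-9), against 6.97%. In both lists there were 2, daf-5 and sma-9, against 1.93% of all genes. Both have long windows, and no share of genes with long windows is given for this count. With the same site required in both, daf-5 alone is left. It held 3 of the 46 member pooled peaks that met this, 2 of which share their replicate peaks, against 231 of all 30000 pooled peaks.

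**Figure D3:**
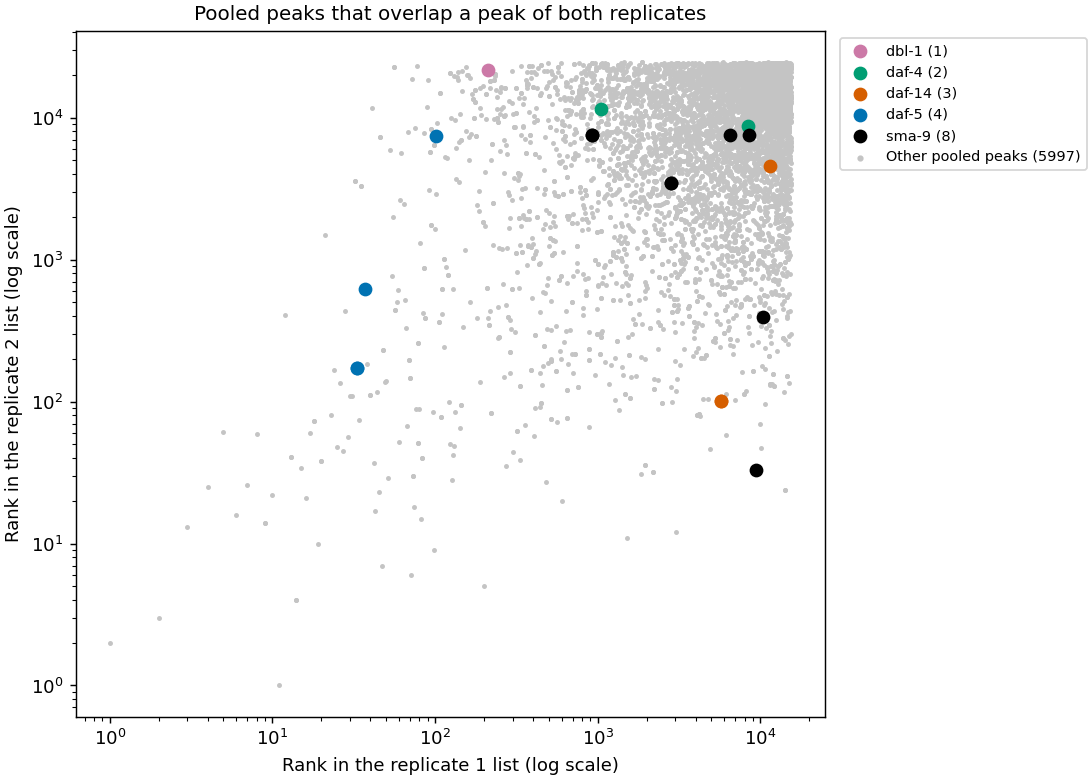
Rank in replicate 2 (vertical axis) against rank in replicate 1 (horizontal axis), both on log scales, for pooled peaks that overlap a peak of both replicates; coloured points are the 18 member peaks, some of which coincide, and grey points the 5997 others. The daf-5 IDR peaks (33 and 172, 37 and 621) lie in the lower left. The IDR peak of sma-9 (9412 and 33) and the strong peak of daf-14 (5694 and 101) lie in the lower right. For daf-14 the replicate 1 rank is that of an overlapping peak with its summit 254 bp away.

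The windows of daf-5 (24089 bp) and sma-9 (18692 bp) were the longest of the members. They made up 42781 of the summed 118709 bp and held 25 of the 46 pooled summits (54.3%). By count, sma-9 had more summits than the longer daf-5, and daf-3, next in length with 12554 bp, had 2. Some of the sma-9 summits belong to pooled peaks that overlap a neighbour. The median window of all protein-coding genes was 7027 bp with 2 pooled summits. Among the 998 genes with windows of at least 15000 bp, a limit added after the lengths were seen, 2.1% had an IDR summit and 16.3% a summit among the 1000 strongest pooled peaks. Summits per kb were 0.856 at sma-9, 0.374 at daf-5, 0.574 at daf-4 and 0.0938 at daf-1, and 0.388 over all member windows, against 0.299 over the 6 chromosomes and 0.330 over X, where sma-9 and daf-3 lie. The density of daf-5 summits was thus below that of the member windows together, which include sma-9. It was above the 0.300 over chromosome II, where daf-5 lies. The part of gene length in these counts and in the presence of an IDR peak was not tested.

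**Figure D4:**
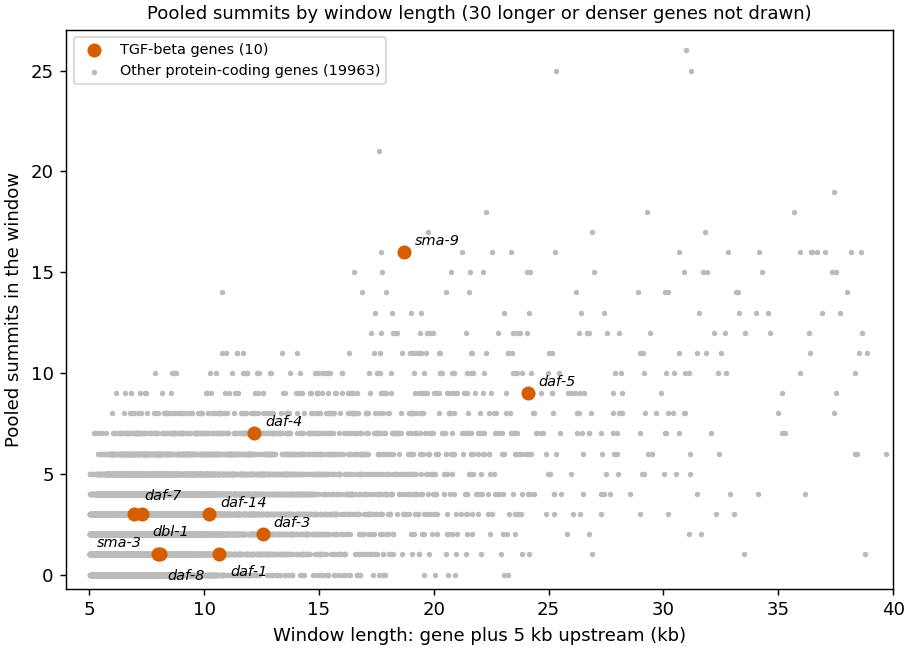
Pooled summits (vertical axis) by length of the window of gene plus 5000 bp upstream in kb (horizontal axis), for the 10 TGF-beta genes (large points, named) and the other 19963 protein-coding genes (small points). The windows of daf-5 (9 summits) and sma-9 (16 summits) are the longest of the 10, and 30 genes lie beyond the axes.

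In introns lay 39.1% of member summits (18 of 46, 95% exact interval 25.1 to 54.6%) and 30.6% of other pooled summits. In coding exons lay 17.4% of member summits (8 of 46, interval 7.82 to 31.4%) and 26.6% of the others. Outside protein-coding genes lay 37.0%, against 36.8%. The intervals for introns and coding exons include the share of the other summits, which is no test of a difference. The nearest protein-coding start belonged to another gene for 7 of the 46. Median GC content within 100 bp of the summit was 44.8% at daf-5, 38.3% at sma-9 and 36.8% at the other 8 genes, against 45.3% for IDR peaks and 35.8% for all pooled peaks. At the edge of the window, the outermost summits inside were those of daf-14 (4498 bp upstream, rank 27507) and daf-1 (4321 bp, rank 27191). The nearest ones outside were those of daf-7 (5478 bp, rank 14150) and daf-4 (5493 bp, rank 1591), and no IDR summit lay within 2000 bp beyond this edge.

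Other TGF-beta genes had no IDR summit, against 0.871% of all genes with one. Of the 20 in the list, which included ligands (unc-129, tig-2, tig-3), the receptor sma-6, the SMADs sma-2 and sma-4 and extracellular and membrane modulators, 3 had a summit among the 1000 strongest pooled peaks. They were unc-40 (rank 419, 3068 and 527 in replicates 1 and 2), the receptor of netrin that also acts in the body-size pathway, bra-1 (rank 502, 1592 and 784) and the tetraspanin gene tsp-14 (rank 978, 338 and 23190). The summit assigned to bra-1 lay 58 bp upstream of F54B11.5, and the nearest start to that of unc-40 was of aprt-1. None of the 20 had a summit among the 1000 strongest of both replicates, against 1.93% of all genes. At shares this low, a count of none in 20 genes says little. The share of 3 in 20 was 15%, against the 7.61% of all genes given above.

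Dauer genes outside the TGF-beta pathway had 1 IDR summit among the 20 of 21 that were found by symbol, against 0.871% of all genes with one. It lay at din-1 (rank 83, 65 and 521 in replicates 1 and 2), whose product is the corepressor of the steroid receptor DAF-12, 815 bp downstream of a start on chromosome II. Upstream of din-1 lay 2 further summits among the 1000 strongest pooled peaks, rank 210 (588 and 227) and rank 444 (1568 and 14571). Like daf-5, din-1 thus had 2 sites, of rank 83 and 210, among the 1000 strongest in both replicates. Other summits among the 1000 strongest pooled peaks were found at egl-4, a cGMP-dependent kinase (rank 296), and at daf-16, the FOXO factor of insulin signalling (rank 600). That daf-16 peak ranked 273 in replicate 1 and 6447 in replicate 2. These 3 genes of 20 (15%) compare with 7.61% of all genes, and with 16.3% of genes with windows of at least 15000 bp, as their windows run from 23840 to 37526 bp. A summit among the 1000 strongest of each replicate was counted at din-1 and daf-16, 2 of 20 (10%), against 1.93% of all genes. For this count no share of genes with long windows is given. At daf-16 the best ranks were 249 in replicate 1 and 886 in replicate 2, and whether they share a site was not examined.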

How the data were processed

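ChIP-seq of UNC-62 in 2 biological replicates was analysed from 4 ce11 peak lists. Per the deposited readme texts, the authors called peaks on each replicate and on both pooled, against a control alignment that was not analysed here, and then applied IDR. For the aligner, the caller and the IDR threshold, a name or value was not given in the sources used here. Peak strength is the authors' deposited signal value, which has no stated scale and was used to rank peaks within a list. The ce10 lists were not used.

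Peaks of 2 lists were matched at an overlap of at least 1 bp, keeping the strongest. The 6 sequences were searched within 100 bp of summits on both strands in the RefSeq genome of WBcel235. The members, lists and sequences were chosen with earlier results of these data known. Named were all 10 members, listed genes with an IDR summit or a summit among the 1000 strongest pooled peaks, the gene nearest to such a summit of a member, and the 3 IDR peaks most alike in replicate ranks. With 1 group and members chosen on these peaks, no test was run. Windows and sequence searches were tested on planted data. Intervals are 95% exact Clopper-Pearson intervals. The software was matplotlib 3.10.9, pandas 2.3.3, SciPy 1.17.1 and NumPy 2.4.6 under Python 3.11.15.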

Additional observations from a re-analysis of the deposited data

How the results depend on the processing

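The 2 members with an IDR summit were the same with nearest starts and with any base of the peak, and 1, daf-5, was left with 2000 bp upstream, in the gene body and in a stricter IDR list at or above its median signal. The 3 with a summit among the 1000 strongest pooled peaks were the same under each window and with the 500 strongest. They became 5 with the 3000 strongest, when dbl-1 and daf-4 joined. At that looser limit many genes are counted, as 19.1% of all genes had a best pooled rank as high as the 2771 of daf-4. With either replicate left out the count was 3 to 3, with dbl-1 in place of daf-14 in replicate 1. Of the 46 pooled summits 26 lay in gene bodies, and single lists gave 27 to 44. With overlapping neighbours counted once, an alternative added after seeing the data, there were 39. The share of member peaks found in both replicates was 23.9% at an overlap of at least 50% of both peaks and 17.4% with summits within 100 bp, against 14.4% of the other pooled peaks under the overlap rule and 2995 of 29954 under the summit rule. TGACAG was in 10.9% of the 46 member peaks over whole peaks of 376 bp, and in 6.52% within 50 bp of the summit. No share of all pooled peaks is given at either width. The 7.57% of all pooled peaks is for 100 bp to either side, a shorter stretch than a whole peak. The 10.9% therefore cannot be compared with it. No paired analysis was possible because there is 1 group. Read depth is unknown, and each rank is 1 value per list.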
